A study of Mus musculus with 6 samples.

Results

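The kidney's proximal tubule takes back most of the filtered solutes, and the genes described here encode the carriers and receptors that do so. They are 50 genes, taken from the count table by gene symbol: transporters of phosphate, sugars, lactate, amino acids, organic anions and cations, dicarboxylates, sulfate, sodium, bicarbonate and ascorbate, and the endocytic receptors of the brush border. All 50 were found among the 34714 genes of the table, and all 50 passed the filter on low counts. RNA was sequenced from ligated kidneys of male mice that were 8 weeks old at surgery, collected 10 days after unilateral ureteral obstruction (UUO), in which 1 ureter is tied. The knockout group (KO), with 3 libraries, lacked miR-92b in all tissues through the allele Mir-92bem22Cd549/Gpt on a C57BL/6JGpt background. The wild-type group (WT), also with 3 libraries, was C57BL/6J, and whether these mice were littermates of the KO mice is not given in the sources used here, so the deletion and the substrain cannot be told apart. Both groups were obstructed, and a kidney without obstruction was not analysed here. The treatment label and the column names give obstruction for all 6 libraries, although the protocol text calls ligated kidneys controls without fibrosis. Whether each library came from its own animal is not stated, so the p-values measure only the spread between these libraries, which may be technical.

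Proximal tubule cells carry transporters on a brush border that faces the filtrate and on a basolateral side that faces the blood. Sodium-coupled carriers bring solutes in from the filtrate, other carriers let them out to the blood, and a separate set of carriers secretes organic anions and cations. Filtered proteins enter by endocytosis through large receptors. Obstruction and other tubule injury are known to lower the expression of many of these genes, whose transcription depends on the factor Hnf4a among others.

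None of the 50 genes was called different between KO and WT kidneys, and 0% of the 18927 genes tested were called (edgeR quasi-likelihood test, Benjamini-Hochberg adjusted p under 0.05). Their adjusted p-values lay between 0.627 and 0.997. The log2 fold change, KO over WT, was below 0 for 40 of the 50 and above 0 for 10, with a median of -0.32, beside a median of -0.02 over all genes tested, of which 52.3% lay below 0. For 38 of the 50 genes the difference was smaller than its own standard error (SE, given after ± beside each log2 fold change, n = 3 per group). An unadjusted p under 0.05 was reached by 1 gene of the 50, Slc47a1, which was lower in KO kidneys, against 7.90% of all genes tested in either direction and 3.52% lower in KO kidneys. DESeq2 called 0 members, against 0.334% of the genes it tested, and limma-voom called 0, against 0.0159%. The groups did not overlap for 1 gene of the 50, Slc15a2, which was lower in KO kidneys. Over all genes tested they did not overlap for 16.1%, made up of 7.20% lower and 8.95% higher in KO kidneys.

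For most of the 50 genes the libraries of a group differed more than the groups did. Levels are given as CPM, the count divided by the library's normalised size and scaled to a common total. Summed over the 50 genes, KO libraries 1, 2 and 3 held 7826, 5941 and 3663 CPM, against 4373, 5599 and 10025 CPM in WT libraries 1, 2 and 3. KO library 3 was thus the lowest of the 6 and WT library 3 the highest. In bulk tissue, fewer proximal tubule cells and less RNA of a gene in each cell cannot be told apart. Of the 50 genes, 46 had their lowest KO value in library 3 and 43 their highest in library 1. In WT kidneys, 45 had their highest value in library 3 and 40 their lowest in library 1. The highest of the 6 values stood in WT library 3 for 42 genes, and the lowest in KO library 3 for 33 and in WT library 1 for 14.

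**Figure D1:**
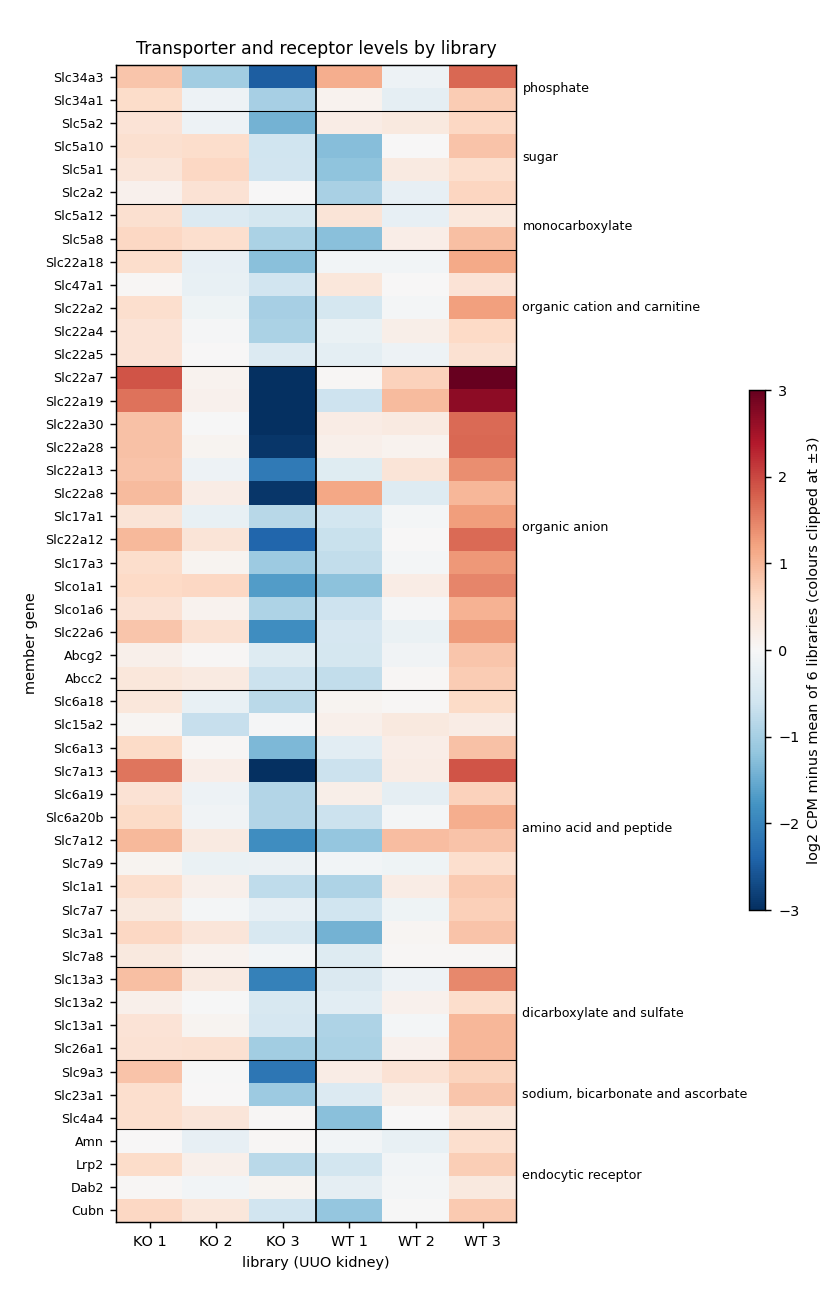
Level of each of the 50 genes (rows, grouped by substrate class and ordered by fold change) in each library (columns), as log2 CPM minus the mean of the 6 libraries; blue is lower, red is higher, and colours stop at ±3. KO library 3 is blue and WT library 3 red in most rows. The darkest cells are those of organic anion carriers and of the amino acid carrier Slc7a13.

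The spread can be put in one number per gene, the standard deviation (SD) of log2 CPM between libraries of a group, pooled over both groups. Its median was 0.79 for the 50 genes and 0.28 for all genes tested. For 30 of the 50 it lay above the 90th percentile of all genes tested, at 0.70. The median size of the log2 fold change was 0.33 for the 50 genes, with a median standard error of 0.48. Slc22a7 had the largest spread of the 50, at percentile 99.96, and Dab2 the smallest, at percentile 34.2.

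**Figure D2:**
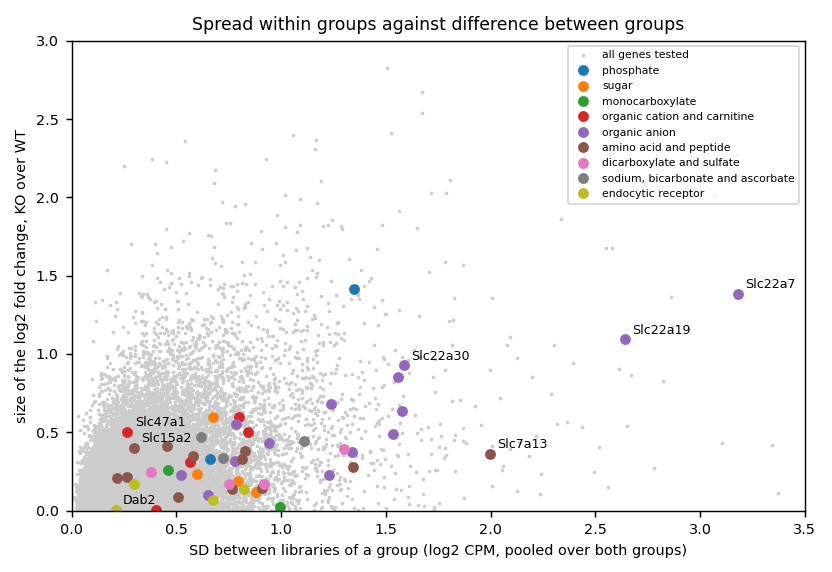
Size of the log2 fold change, KO over WT, (vertical) against the SD of log2 CPM between libraries of a group (horizontal) for the 50 genes, coloured by class, and for all genes tested in grey, of which 19 lie outside the axes. Slc22a7, Slc22a19 and Slc7a13 lie far to the right, and Slc47a1 and Slc15a2 have spreads near those of most genes.

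The sign of the difference rested on which libraries were compared. The median log2 fold change of the 50 genes was -0.32 with all libraries. It was -0.65 without KO library 1, -0.32 without KO library 2 and -0.01 without KO library 3. Leaving out WT libraries gave -0.48 without library 1, -0.43 without library 2 and 0.23 without library 3. Without library 3 of both groups it was 0.44, and 46 genes lay above 0, against 10 with all libraries. That fit leaves out the lowest KO value of 46 genes and the highest WT value of 45. Its rise was thus set in advance by which libraries were left out, also in the class medians below. In limma-voom with weights for library quality, the median was -0.01 and 25 genes lay above 0. There the class medians of the lactate carriers (0.07), organic anion carriers (0.01), dicarboxylate and sulfate carriers (0.11) and endocytic receptors (0.08) lay above 0, while they lay below 0 in the edgeR fit. Only 6 genes kept their sign in all 17 alternative fits: Slc34a3, Slc5a2, Slc7a8, Slc4a4, Slc15a2 and Slc47a1. None of the 50 was called in any of these fits, including the fit without KO library 3, in which 0.00519% of genes were called.

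Other gene lists also differed between libraries, some in the order of the 50 genes and others not. Enzymes and brush border proteins of the proximal tubule that are no transporters (23 genes) had median deviations from the mean of the 6 libraries of 0.54, -0.063 and -0.96 (log2) in KO libraries 1, 2 and 3, and -0.40, -0.09 and 1.06 in WT libraries 1, 2 and 3. The 50 genes had 0.50, 0.057 and -0.90 in the KO libraries and -0.46, 0.0066 and 0.83 in the WT libraries, which is the same order. Fibroblast markers (6 of 6 measured) ran in the opposite order within each group, with summed levels of 1709, 3332 and 4884 CPM in the KO libraries, against 2619, 1728 and 1225 CPM in the WT libraries. Endothelial markers (5 of 5) summed to 202, 334 and 599.6 CPM in the KO libraries and 403, 223 and 216 CPM in the WT libraries, with the highest sum in KO library 3. Markers of the thick limb and distal tubule (7 of 7) summed to 5055, 3496 and 942 CPM in the KO libraries and 1821, 4999 and 3722 CPM in the WT libraries. Their sum was thus lowest in KO library 3 and next lowest in WT library 1. Most of it was Umod, at 3773, 2780 and 615 CPM in the KO libraries and 1044, 3872 and 2787 CPM in the WT libraries. The median deviation of the list was -1.63 in KO library 3 but only -0.10 in WT library 1. Tubule injury markers (10 of 10) had deviations of 0.15, 0.011 and 0.17 in the KO libraries, against -0.50, 0.023 and 0.30 in the WT libraries. The median was thus lowest in WT library 1, although Lcn2 and Krt18 of this list had their highest value there. Fat cell markers (3 of 5 measured) summed to 164, 0.88 and 3.75 CPM in the KO libraries and 2.02, 39.9 and 1.47 CPM in the WT libraries. Skeletal muscle markers (5 of 5) summed to 0.616, 0.644 and 0.457 CPM in the KO libraries, against 5.20, 5.16 and 4.79 CPM in the WT libraries, with Myh4 and Myh1 at 0 counts in every KO library. Collecting duct markers (8 of 8) had fold changes below 0 in 8 genes (median -0.26), podocyte markers (5 of 5) in 3 (median -0.05), and macrophage and leukocyte markers (7 of 7) in 1 (median 0.36). Fibroblast markers lay above 0 in 6 of 6 genes (median 0.81) and endothelial markers in 5 of 5 (median 0.57). Thick limb and distal tubule markers lay below 0 in 6 of 7 genes (median -0.11). Of these 7, Pvalb had the smallest p (log2 fold change -4.72 ± 0.91, edgeR adjusted p = 0.627), at under 1 CPM in every library. None of these marker genes was called by edgeR. The part of these tissue differences in the transporter values was not tested.

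**Figure D3:**
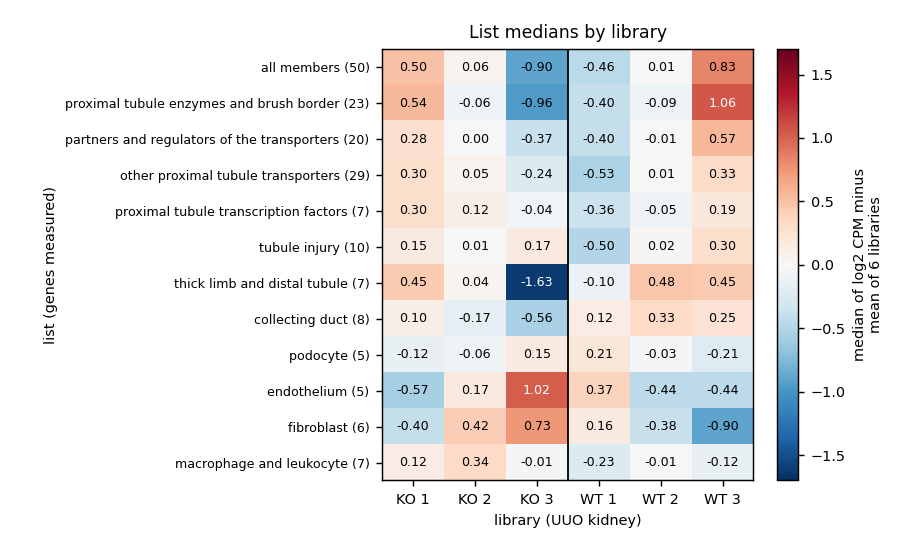
Median deviation from the mean of the 6 libraries (log2 CPM, printed in each cell) for the 50 genes and for 11 other lists (rows) in each library (columns). The 50 genes and the proximal tubule enzymes share the order WT library 3, KO library 1, then the middle libraries, WT library 1 and KO library 3, while fibroblast and endothelial markers are highest in KO library 3.

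Library totals ran from 38738204 to 51932509 counts, and the 50 genes took 0.363% to 0.907% of them. The smallest counts of the 50 genes were 4 for Slc22a7, 14 for Slc34a3 and 17 for Slc22a19, all in KO library 3, and every other value rests on at least 38 counts. Tubule, podocyte, endothelial and fibroblast markers of the kidney were detected, though not every marker in every library. Pvalb, of the distal tubule, was at 0 CPM in KO libraries 2 and 3. The deleted microRNA has no row in the table, so the genotype was not checked here.

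The deleted gene's main product is shown because its seed, bases 2 to 8 in capitals, is what pairs with targets. RefSeq (GRCm38.p6) places it at chr3:89227126-89227147 on the minus strand.
miR-92b-3p: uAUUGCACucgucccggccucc
The matching letters GTGCAAT, or TGCAATA, occurred in the longest annotated 3′ untranslated region of 5 of the 50 genes (10%), against 13.9% of the tested genes that have such a region. No member held the full 8 letters GTGCAATA. These 5 are Slc5a2, Slc6a20b, Slc1a1, Slc47a1 and Slc23a1, and the match, in capitals, is given with its flanks for 4 of them.
Slc5a2: gggccaggaatGTGCAATggagatggaaga
Slc6a20b: gttttaagataGTGCAATgatactacctta
Slc1a1: cagcatagttcTGCAATAacagtttaaaga
Slc47a1: aacaccatataGTGCAATgtgggggagact
Slc47a1 also held a TGCAATA further upstream. Their log2 fold changes were -0.60 ± 0.39 for Slc5a2, -0.33 ± 0.50 for Slc6a20b, -0.13 ± 0.45 for Slc1a1, -0.34 ± 0.43 for Slc23a1 and -0.50 ± 0.20 for Slc47a1 (log2, ± SE, n = 3 per group), and none was called. All 5 lay below 0, as did 40 of the 50 genes. The sign of Slc6a20b, Slc1a1 and Slc23a1 turned in some fits without a library. A match of letters is a description and does not make a site.

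Promoters are shown for the genes whose promoter held the core letters of the motif of Hnf4a, the tubule factor measured here at steadier levels than the carriers. RefSeq (GRCm38.p6) held promoters of 300 bases around the start for 41 of the 50 genes, and letters were searched on both strands. CAAAGTC, the core of an Hnf4 motif, occurred for 3 of 41 (7.32%), against 5% of all 27025 genes with a promoter in the table. CAAAGTCCA, which contains it, occurred for 1 of 41, Slc3a1, and 0.555% of all genes. AAAGTCCA, which overlaps both, occurred for the same gene and 1.46% of all genes, and CAAAGTTCA for Slco1a6 and 0.448%. A direct repeat of the nuclear receptor motif occurred for 0 of 41 and 0.0481%, and the TATA letters TATAAA for 7 of 41 (17.1%) and 15.7%. In the sequences, CAAAGTC or its reverse complement is in capitals.
Slc34a1 (chr13:55399398-55399697, plus strand): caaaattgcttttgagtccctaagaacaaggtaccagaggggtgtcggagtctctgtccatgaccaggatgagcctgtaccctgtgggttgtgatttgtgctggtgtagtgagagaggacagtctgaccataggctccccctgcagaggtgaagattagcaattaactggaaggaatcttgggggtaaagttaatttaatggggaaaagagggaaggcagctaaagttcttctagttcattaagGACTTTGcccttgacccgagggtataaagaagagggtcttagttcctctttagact
Slc7a7 (chr14:54417895-54418194, minus strand): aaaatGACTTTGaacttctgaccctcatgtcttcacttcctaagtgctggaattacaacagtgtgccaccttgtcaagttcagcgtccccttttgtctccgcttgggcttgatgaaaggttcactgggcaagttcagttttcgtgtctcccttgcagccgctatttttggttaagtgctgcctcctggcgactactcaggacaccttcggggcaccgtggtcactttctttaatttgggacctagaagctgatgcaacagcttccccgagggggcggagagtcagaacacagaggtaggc
Slc3a1 (chr17:85028097-85028396, plus strand): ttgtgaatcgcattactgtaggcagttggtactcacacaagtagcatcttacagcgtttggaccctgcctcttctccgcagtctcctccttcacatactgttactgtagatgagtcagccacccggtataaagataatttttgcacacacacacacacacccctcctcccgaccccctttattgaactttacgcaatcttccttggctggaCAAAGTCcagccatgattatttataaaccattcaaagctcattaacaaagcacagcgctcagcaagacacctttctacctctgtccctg
These 3 genes did not share a spread: the within-group SD was 0.66 for Slc34a1, 0.51 for Slc7a7 and 0.91 for Slc3a1 (log2).

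Phosphate carriers had fold changes below 0 without a call. Slc34a1, the main sodium-phosphate cotransporter of the brush border (chromosome 13, 55398187 to 55415592, plus strand, GRCm38), stood at 937, 573 and 318 CPM in KO libraries 1, 2 and 3, against 683, 529.6 and 1079.7 CPM in WT libraries 1, 2 and 3. The groups overlapped, with WT library 3 the highest and KO library 3 the lowest of the 6. Its log2 fold change was -0.33 ± 0.41 (edgeR adjusted p = 0.805). Per length of the longest transcript it was the most abundant of the 50 genes in WT kidneys and second to Slc13a1 in KO kidneys, at 153 CPM per kb in KO and 192 in WT kidneys. Slc34a3, the second renal phosphate cotransporter, was the weakest of the 50, at 3.10, 0.816 and 0.278 CPM in the KO libraries and 3.74, 1.56 and 5.85 CPM in the WT libraries. Its lowest value, in KO library 3, rests on 14 counts (95% exact Poisson interval 7.65 to 23.5, counting error only). The log2 fold change was -1.41 ± 0.83 (edgeR adjusted p = 0.648), and KO library 1 lay within the range of the WT libraries.

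Among the regulators of phosphate carriage, Pth1r, the parathyroid hormone receptor, stood at 385, 282 and 213 CPM in the KO libraries and 217, 295 and 441 CPM in the WT libraries. Kl, the klotho coreceptor of the hormone Fgf23, stood at 237, 140.0 and 54.4 CPM in the KO libraries, against 101, 159 and 233 CPM in the WT libraries. Both were lowest in KO library 3 and next lowest in WT library 1, where neither phosphate carrier was low, and neither gene was called.

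Sugar carriers had 3 of 4 fold changes above 0. Slc5a2, the high-capacity sodium-glucose cotransporter of the early tubule, stood at 79.8, 54.5 and 22.6 CPM in KO libraries 1, 2 and 3 and 70.8, 73.7 and 92.7 CPM in WT libraries 1, 2 and 3. The WT libraries were close to each other, and KO library 1 lay among them while the other KO libraries lay below. The log2 fold change was -0.60 ± 0.39 (edgeR adjusted p = 0.662). Slc5a1, the high-affinity cotransporter of the later tubule, stood at 104, 124 and 53.8 CPM in the KO libraries and 35.1, 97.9 and 115 CPM in the WT libraries, with WT library 1 the lowest. The ratio of Slc5a1 to Slc5a2 counts within a library was 1.31, 2.28 and 2.38 in the KO libraries and 0.495, 1.33 and 1.24 in the WT libraries, so WT library 1 held little Slc5a1 for its Slc5a2. Slc2a2, the basolateral exit for glucose, stood at 51.4, 63.4 and 47.0 CPM in the KO libraries, against 23.9, 39.5 and 74.0 CPM in the WT libraries, a log2 fold change of 0.24 ± 0.37. Slc5a10, which carries mannose and fructose, had a log2 fold change of 0.12 ± 0.51. The median of the class was 0.15. It turned to -0.07 without KO library 2 and to -0.22 without WT library 1, and was 0.61 without WT library 3.

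Both sodium-coupled lactate carriers were measured. Slc5a12, the low-affinity carrier of the early tubule, stood at 103, 55.6 and 50.9 CPM in the KO libraries and 95.8, 61.7 and 92.3 CPM in the WT libraries. It was high in KO library 1 and in WT libraries 1 and 3. Slc5a8, the high-affinity carrier of the later tubule, stood at 117, 109 and 39.2 CPM in the KO libraries, against 32.0, 86.8 and 142 CPM in the WT libraries, and was lowest in WT library 1 and KO library 3. The log2 fold change was -0.26 ± 0.29 for Slc5a12 and 0.02 ± 0.57 for Slc5a8, and neither was called. The class median of -0.12 became 0.15 without KO library 3 and 0.20 without WT library 3.

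The lowest of the 6 values fell in WT library 1 for some genes and in KO library 3 for others. WT library 1 was lowest for 14 genes, which were Slc5a1, Slc5a8, Slc5a10, Slc2a2, Slc7a7, Slc7a8, Slc3a1, Slc13a1, Slc4a4, Slc1a1, Abcc2, Abcg2, Cubn and Dab2. KO library 3 was lowest for 33 of the 50, among them 12 of 14 organic anion carriers and 5 of 5 carriers of cations and carnitine. It was also lowest for 2 of 2 phosphate, 3 of 4 dicarboxylate and sulfate, and 2 of 3 sodium, bicarbonate and ascorbate carriers. The shares were 6 of 12 for amino acid and peptide, 1 of 2 for lactate and 1 of 4 for sugar carriers, and 1 of 4 for endocytic receptors.

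**Figure D4:**
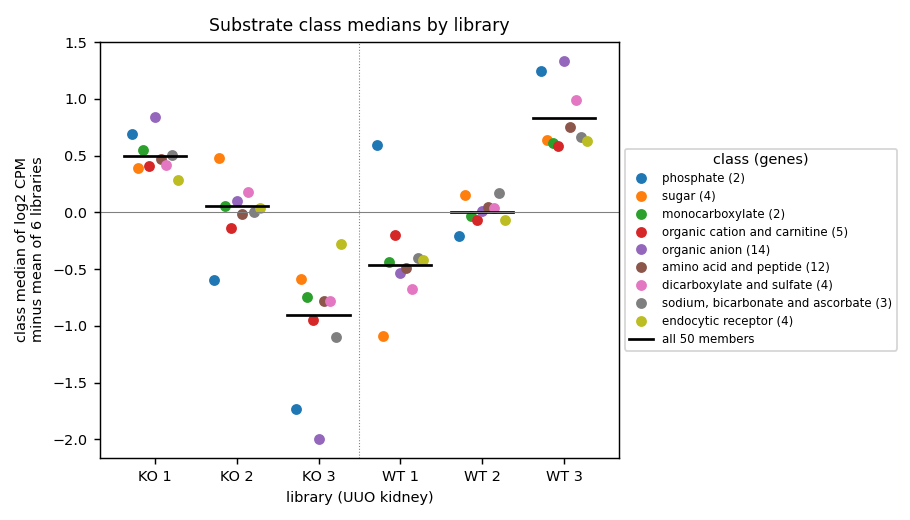
Median of log2 CPM minus the mean of the 6 libraries (vertical) for each substrate class (coloured points, number of genes in the legend) and for all 50 genes (black bars) in each library (horizontal). KO library 3 has the lowest and WT library 3 the highest bar. The organic anion and phosphate classes reach furthest down in KO library 3, while the sugar and endocytic receptor classes are lowest in WT library 1.

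Organic anion carriers were the widest spread of the classes, with a median within-group SD of 1.29 (log2), and phosphate carriers came next with 1.01. All 14 had fold changes below 0, from -1.38 for Slc22a7 to -0.10 for Abcc2, with a class median of -0.52 and edgeR adjusted p-values from 0.727 to 0.943. The median became 0.26 without WT library 3, -0.10 without KO library 3 and 0.59 without library 3 of both groups. Of the 14, 12 had a within-group SD above the 90th percentile of all genes tested. Class medians of the deviation were 0.84, 0.10 and -1.99 (log2) in KO libraries 1, 2 and 3, against -0.53, 0.017 and 1.34 in WT libraries 1, 2 and 3.

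Slc22a7, an organic anion carrier, stood at 29.7, 8.50 and 0.0794 CPM in the KO libraries and 8.21, 12.9 and 78.6 CPM in the WT libraries. KO library 3 held 4 counts of it (95% exact Poisson interval 1.09 to 10.2), so KO library 1 was 374-fold higher than KO library 3, with a counting interval of 146-fold to 1372-fold. Its log2 fold change between the groups was -1.38 ± 1.42 (edgeR adjusted p = 0.761). Slc22a19, a carrier of sulfated steroids in the mouse, followed the same order, at 32.1, 11.4 and 0.338 CPM in the KO libraries and 6.73, 20.1 and 66.7 CPM in the WT libraries. Slc22a12, the urate exchanger of the brush border and the class member with the highest counts, stood at 286, 190.4 and 27.8 CPM in the KO libraries, against 90.8, 146 and 469 CPM in the WT libraries. The ranges of the groups overlapped for all of these genes.

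Slc22a6 and Slc22a8, the carriers that take organic anions up from the blood, differed from each other in WT library 1. Slc22a6 was at 156, 122 and 24.2 CPM in the KO libraries and 62.8, 77.4 and 214 CPM in the WT libraries. Slc22a8 was at 39.2, 23.7 and 2.64 CPM in the KO libraries and 45.6, 15.4 and 40.6 CPM in the WT libraries, with WT library 1 the highest of the 6. Both were lowest in KO library 3. Slc22a28 and Slc22a30, rodent relatives of these carriers, had log2 fold changes of -0.85 ± 0.84 and -0.93 ± 0.85 between the groups, and Slc22a13, a carrier of urate and nicotinate, at -0.68 ± 0.71.

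Position was not used to choose the genes, and 6 of the organic anion carriers lie within 2.09 Mb of chromosome 19, from 6535845 to 8628299: Slc22a12, Slc22a19, Slc22a28, Slc22a30, Slc22a8 and Slc22a6. Slc22a8 and Slc22a6 are 6.2 kb apart (GENCODE M21, GRCm38). The within-group SD of the 6 ran from 1.23 to 2.64, with a median of 1.57, against 0.76 for the other 44 genes of all classes. Organic anion carriers outside this stretch ran from 0.52 for Abcg2 to 3.18 for Slc22a7 on chromosome 17. The part of position was not tested apart from that of the class. Slc22a19, Slc22a28 and Slc22a30 are close relatives, and the counting may have split reads between them. Among other neighbours, Slco1a1 and Slco1a6, 139 kb apart on chromosome 6, had SDs of 1.34 and 0.78, and Slc6a18 and Slc6a19, 1.72 kb apart on chromosome 13, had 0.46 and 0.58.

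Slc17a1, Slc17a3, Abcc2 and Abcg2, carriers of the brush border, had within-group SDs of 0.78, 0.94, 0.65 and 0.52 (log2). Slc17a1, a carrier of urate and other anions and the class member with the smallest p, stood at 232, 152 and 99.4 CPM in the KO libraries, against 121, 170.1 and 418 CPM in the WT libraries (log2 fold change -0.55 ± 0.49, edgeR adjusted p = 0.727). Its neighbour Slc17a3 had a log2 fold change of -0.43 ± 0.57. Abcc2, the pump for conjugated anions, stood at 143, 137 and 73.3 CPM in the KO libraries and 68.6, 116 and 193 CPM in the WT libraries (log2 fold change -0.10 ± 0.39). Abcg2, a urate and drug pump that endothelium also makes, had a log2 fold change of -0.23 ± 0.33. Slco1a1 and Slco1a6, of the organic anion transporting polypeptides, had log2 fold changes of -0.38 ± 0.76 and -0.32 ± 0.47.

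Among the carriers of organic cations and carnitine, Slc47a1 had the smallest p of all 50 genes. It lets cations out to the filtrate, and it stood at 275, 232 and 180.1 CPM in KO libraries 1, 2 and 3, against 343, 271 and 360.0 CPM in WT libraries 1, 2 and 3. KO library 1 lay just above WT library 2, and otherwise the KO libraries were lower. The log2 fold change was -0.50 ± 0.20 (edgeR unadjusted p = 0.0402 and adjusted p = 0.627), from -0.65 to -0.27 when libraries were left out. Slc22a2, which takes cations up from the blood, had a log2 fold change of -0.50 ± 0.52. Slc22a18, an imprinted gene without a settled substrate, had the lowest fold change of the class and stood at 98.8, 57.9 and 28.9 CPM in the KO libraries, against 65.0, 65.2 and 150.5 CPM in the WT libraries. Slc22a5, the carnitine carrier, stood at 145, 109.8 and 81.8 CPM in the KO libraries and 89.3, 97.3 and 149 CPM in the WT libraries, a difference of 0.005 ± 0.26 on the log2 scale. Its neighbour on chromosome 11, Slc22a4, which carries ergothioneine, had a log2 fold change of -0.31 ± 0.34. The class median of -0.50 became -0.07 without WT library 3, -0.19 without KO library 3 and 0.27 without library 3 of both groups.

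Amino acid and peptide carriers had 10 of 12 fold changes below 0, with a median of -0.30. Slc15a2, which takes up short peptides in the late tubule, was the member whose groups did not overlap. It stood at 96.0, 56.4 and 89.6 CPM in the KO libraries, against 101, 111 and 107 CPM in the WT libraries. All 3 KO values lay below all 3 WT values, which were within 1.10-fold of each other. The log2 fold change was -0.40 ± 0.20 (edgeR adjusted p = 0.637), from -0.54 to -0.20 when libraries were left out. Slc6a18, a neutral amino acid carrier and the most counted gene of the class, stood at 422, 286 and 192 CPM in the KO libraries, against 354, 341 and 499.7 CPM in the WT libraries (log2 fold change -0.41 ± 0.30). Slc7a8, the light chain of a basolateral exchanger of neutral amino acids, stood at 89.1, 78.9 and 68.6 CPM in the KO libraries and 55.5, 74.6 and 74.4 CPM in the WT libraries, a log2 fold change of 0.21 ± 0.17 and one of the narrowest spreads of the 50.

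The heavy chain Slc3a1 and its light chains did not vary alike. Slc3a1, which Slc7a9 needs to carry cystine and cationic amino acids, stood at 309, 259 and 144 CPM in the KO libraries and 75.0, 209 and 360.5 CPM in the WT libraries. Slc7a9 stood at 63.2, 52.2 and 53.0 CPM in the KO libraries and 56.7, 54.7 and 84.2 CPM in the WT libraries. The ratio of Slc3a1 to Slc7a9 counts was 4.89, 4.95 and 2.71 in the KO libraries and 1.32, 3.83 and 4.28 in the WT libraries, lowest in WT library 1. Slc7a13, the other light chain that pairs with Slc3a1, in the late tubule, stood at 103, 39.0 and 3.48 CPM in the KO libraries and 21.6, 39.5 and 126 CPM in the WT libraries. It was 29.7-fold higher in KO library 1 than in KO library 3.

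The remaining amino acid carriers overlapped between the groups. The light chain Slc7a7, which lets cationic amino acids out to the blood and which macrophages also make, had a log2 fold change of -0.09 ± 0.32, and Slc7a12, a related mouse carrier, at -0.28 ± 0.74. Slc6a19, the main neutral amino acid carrier of the brush border, had a log2 fold change of -0.35 ± 0.36, Slc6a20b, a relative of the proline carrier, at -0.33 ± 0.50, and Slc6a13, a basolateral carrier of betaine and GABA, at -0.38 ± 0.48. Slc1a1, the glutamate and aspartate carrier, had a log2 fold change of -0.13 ± 0.45. Cltrn (collectrin), a partner that brings Slc6a19 to the membrane, was not called either and stood at 346, 235 and 166 CPM in the KO libraries and 209.6, 266 and 555 CPM in the WT libraries. The class median became 0.15 without WT library 3 and 0.01 without KO library 3.

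All 4 carriers of dicarboxylates and sulfate had fold changes below 0, with a median of -0.21. Slc13a1, the sulfate carrier of the brush border, stood at 631, 508 and 335 CPM in the KO libraries, against 252, 460.5 and 947 CPM in the WT libraries (log2 fold change -0.17 ± 0.46). Slc13a2, the citrate carrier of the brush border and the class member with the smallest p, stood at 37.1, 33.2 and 23.8 CPM in the KO libraries and 26.8, 36.3 and 48.3 CPM in the WT libraries (log2 fold change -0.24 ± 0.25, edgeR adjusted p = 0.757). Slc13a3, its basolateral relative, varied most, at 147, 93.7 and 19.1 CPM in the KO libraries, against 58.2, 70.5 and 211 CPM in the WT libraries. Slc26a1, which lets sulfate out to the blood, was at 33.2, 33.9 and 11.9 CPM in the KO libraries and 12.7, 26.9 and 49.1 CPM in the WT libraries. In each of the 4 genes WT library 3 was the highest of the 6. The class median became 0.42 without WT library 3 and 0.07 without KO library 3.

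Slc4a4, the basolateral exit for bicarbonate, had the highest fold change of the 50 genes. It stood at 557, 509.7 and 405 CPM in the KO libraries, against 166, 397 and 501 CPM in the WT libraries. WT library 1 was the low one, and KO library 3 lay between the other WT libraries, so the groups overlapped. Its fitted log2 fold change was 0.47 ± 0.37 (edgeR adjusted p = 0.702), and 0.13 without WT library 1. Slc9a3, the brush border sodium-hydrogen exchanger that the thick limb also makes, stood at 73.9, 41.0 and 9.14 CPM in the KO libraries, against 48.0, 55.6 and 65.2 CPM in the WT libraries. The WT libraries were within 1.36-fold of each other, and the KO libraries spanned 8.09-fold (log2 fold change -0.45 ± 0.61). The summed markers of the thick limb and distal tubule, mostly Umod, were also lowest in KO library 3, at 942 CPM. Their part in this value was not tested. Slc23a1, the ascorbate carrier, stood at 165, 117 and 54.4 CPM in the KO libraries and 88.1, 131 and 206 CPM in the WT libraries (log2 fold change -0.34 ± 0.43). The median of these 3 was -0.34, 0.04 without WT library 3 and 0.03 without KO library 3. Atp1b1, a subunit of the sodium pump that drives the sodium-coupled carriers, had a log2 fold change of -0.05 ± 0.41.

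The endocytic receptors had a class median of -0.03 in the edgeR fit of all libraries. Lrp2 (megalin), a very large receptor for filtered proteins, stood at 497, 377 and 195 CPM in the KO libraries and 230.1, 320.0 and 569.8 CPM in the WT libraries (log2 fold change -0.07 ± 0.42, edgeR adjusted p = 0.967). Cubn (cubilin), its partner, stood at 151, 124 and 65.6 CPM in the KO libraries and 43.6, 97.4 and 169 CPM in the WT libraries (log2 fold change 0.14 ± 0.48). Both were lowest in KO library 3 and WT library 1, in one order or the other.

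Amn and Dab2 were not low in KO library 3. Amn, which anchors cubilin in the membrane, stood at 65.6, 54.5 and 65.9 CPM in the KO libraries and 60.9, 55.7 and 92.4 CPM in the WT libraries (log2 fold change -0.17 ± 0.21, edgeR adjusted p = 0.801). Dab2, the adaptor that links megalin to the clathrin coat and which macrophages and other cells also make, stood at 395, 365 and 411 CPM in the KO libraries and 319.6, 373 and 473 CPM in the WT libraries, a difference of 0.0056 ± 0.19 on the log2 scale. The ratio of Cubn to Amn counts was 2.30, 2.28 and 0.994 in the KO libraries and 0.716, 1.75 and 1.83 in the WT libraries. That of Lrp2 to Dab2 was 1.26, 1.03 and 0.475 in the KO libraries and 0.72, 0.857 and 1.20 in the WT libraries. Both ratios were at their lowest in KO library 3 and WT library 1. Per length of transcript, Dab2 was the most abundant of the 4, at 83.7 CPM per kb in KO and 83.4 in WT kidneys, and Cubn the least, at 10.1 in KO and 9.17 in WT kidneys. The class median became 0.28 without WT library 3 and 0.10 without KO library 3. Of the partners of endocytosis, Lrpap1, the chaperone of megalin, had a log2 fold change of -0.09 ± 0.27 and the chloride exchanger Clcn5 one of 0.27 ± 0.19.

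**Figure D5:**
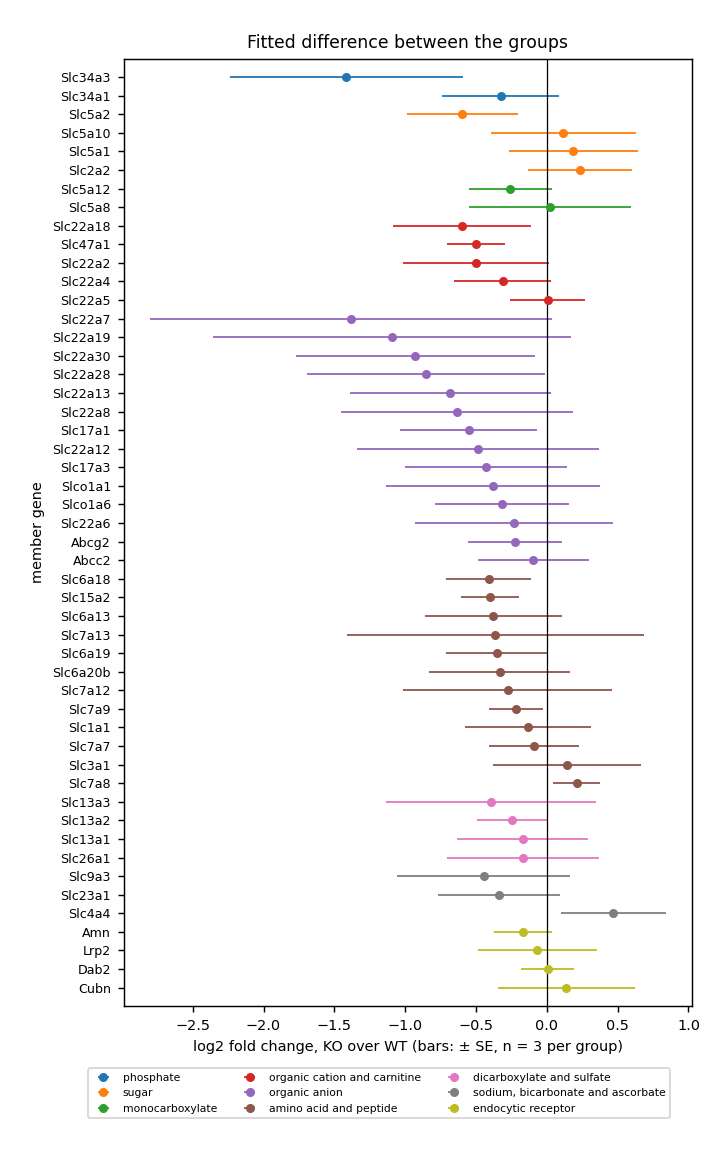
Log2 fold change, KO over WT, of each of the 50 genes (points, coloured by class) with its standard error (bars, n = 3 per group), from the edgeR fit of all genes. Slc34a3 and Slc22a7 are furthest to the left and Slc4a4 is furthest to the right, and the bars of Slc22a7, Slc22a19 and Slc7a13 are the widest.

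Outside the 50 genes, the same fit called none of the proximal tubule genes listed for context. Of 29 other proximal tubule transporters measured, 16 had fold changes above 0 and 13 below, with a median of 0.09. An edgeR unadjusted p under 0.05 was reached by 6 of the 29, against 7.90% of all genes tested. Slc43a2, an amino acid exit carrier, had the smallest p, at 130.2, 118 and 95.4 CPM in the KO libraries, against 64.3, 89.8 and 69.2 CPM in the WT libraries (log2 fold change 0.62 ± 0.18, edgeR adjusted p = 0.627). Its KO values lay above all its WT values. In this list the groups did not overlap for 3 genes higher and 3 genes lower in KO kidneys. Over all genes tested this held for 8.95% higher and 7.20% lower. Of 23 enzymes and brush border genes, 7 lay above 0 and 16 below (median -0.35), and of 20 partners and regulators, 6 above and 14 below (median -0.15). By their median spread the transcription factors varied less than the carriers, although Ppara was low in KO library 3 and WT library 1. Ppara stood at 66.0, 64.3 and 33.6 CPM in the KO libraries and 25.4, 55.2 and 64.3 CPM in the WT libraries. Hnf4a stood at 445, 393 and 368 CPM in the KO libraries and 259, 319 and 411 CPM in the WT libraries (log2 fold change 0.29 ± 0.21). The median within-group SD of the 7 factors was 0.25, against 0.79 for the 50 carriers and receptors. Of the 7, Maf had the smallest p, with a log2 fold change of 0.46 ± 0.15 (edgeR adjusted p = 0.627).

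Some of these genes overlap or resemble others, and how well the counts separate them was not tested. Exons of 12 of the 50 genes overlap exons of a gene on the other strand, by 4 to 2631 bases, and whether strand was used in counting is not given in the sources used here. The longest overlap is that of Slc1a1 with 4430402I18Rik, and Slc13a2 overlaps its antisense transcript Slc13a2os by 632 bases. Slco1a1 and Slco1a6, Slc7a12 and Slc7a13, and Slc17a1 and Slc17a3 are close relatives, as is Slc6a20b of Slc6a20a, and reads may have been divided between them.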

How the data were processed

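RNA from obstructed mouse kidneys was sequenced in 6 libraries, 3 from KO and 3 from WT mice. The authors deposited raw counts per gene symbol, 1 column per library, and the submitters' processing notes name the genome builds GRCm38 and mm10. No aligner, counter or strand setting is stated there or in the labels. Library totals of 38738204 to 51932509 counts set the counting precision, and Poisson intervals cover counting error only.

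All other steps were made from these counts. Genes passing edgeR's filterByExpr (18927 of 34714, holding 99.96% of the counts) were scaled by TMM and tested KO against WT with the robust quasi-likelihood test of edgeR 4.0.16 in R 4.3.3, with Benjamini-Hochberg adjustment over all genes tested and a threshold of 0.05. The standard error is the size of the log2 fold change divided by the square root of the F statistic. Log2 CPM used a prior count of 2. DESeq2 1.42.0, limma 3.58.1 (voom), other scalings and filters, a length trend, a replicate term and leaving libraries out were alternatives. Gene lengths, gene positions and the sequences of 3′ untranslated regions come from GENCODE M21, and promoter and microRNA sequences from RefSeq. The smallest chi-square between any pair of libraries was 31.1 per degree of freedom, so no pair matched within sampling noise. 1 listed gene, Tmem27, was found under its current symbol Cltrn, and 3 listed genes were not measured.

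The 50 genes and all lists were chosen with earlier results of these data known. Within each class, values in every library are given for the genes with the highest mean CPM, the smallest p and the highest and lowest log2 fold change (mean of at least 1 CPM, which all 50 had). Slc22a6, Slc22a8, Slc22a19, Slc23a1, Slc3a1, Slc7a9, Slc7a13 and Lrp2, and in the other lists Pth1r, Kl, Cltrn, Lrpap1, Clcn5, Atp1b1, Ppara, Lcn2, Krt18 and Myh1, were added after their values were seen. Values of some genes of these lists are not reported here.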

Additional observations from a re-analysis of the deposited data

How the results depend on the processing

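No member was called in any of the 17 alternatives, 7 that leave out libraries and 10 others. What changed was the size and, for many members, the sign of their differences. Their median log2 fold change ran from -0.65 to 0.44 when libraries were left out. The highest value came without library 3 of both groups, which removes the lowest KO and the highest WT library. When libraries were left out, 44 members changed sign at least once, with these lowest and highest log2 fold changes. Phosphate and sugar carriers gave Slc34a1 -0.78 to 0.32, Slc5a1 -0.18 to 0.78, Slc5a10 -0.27 to 0.99 and Slc2a2 -0.070 to 0.86. Lactate and cation carriers gave Slc5a8 -0.37 to 0.93, Slc5a12 -0.64 to 0.0064, Slc22a2 -0.92 to 0.51, Slc22a4 -0.64 to 0.21, Slc22a5 -0.22 to 0.45 and Slc22a18 -1.11 to 0.27. Organic anion carriers gave Slc22a6 -0.69 to 0.99, Slc22a7 -2.96 to 0.85, Slc22a8 -1.36 to 0.045, Slc22a12 -1.11 to 1.01, Slc22a13 -1.48 to 0.37, Slc22a19 -2.41 to 0.70, Slc22a28 -1.62 to 0.41, Slc22a30 -1.75 to 0.26, Slc17a1 -0.91 to 0.40, Slc17a3 -0.81 to 0.69, Slco1a1 -0.81 to 0.95, Slco1a6 -0.62 to 0.58, Abcc2 -0.39 to 0.60 and Abcg2 -0.48 to 0.39. Amino acid carriers gave Slc7a7 -0.34 to 0.47, Slc7a9 -0.32 to 0.052, Slc7a12 -0.91 to 0.43, Slc7a13 -1.56 to 1.22, Slc3a1 -0.26 to 1.00, Slc6a13 -0.84 to 0.38, Slc6a18 -0.74 to 0.028, Slc6a19 -0.72 to 0.21, Slc6a20b -0.76 to 0.60 and Slc1a1 -0.48 to 0.57. Dicarboxylate, sulfate, sodium and ascorbate carriers gave Slc13a1 -0.51 to 0.68, Slc13a2 -0.43 to 0.16, Slc13a3 -1.01 to 0.90, Slc26a1 -0.53 to 0.76, Slc9a3 -1.17 to 0.15 and Slc23a1 -0.73 to 0.37. The endocytic receptors gave Lrp2 -0.38 to 0.67, Cubn -0.23 to 0.97, Amn -0.30 to 0.094 and Dab2 -0.12 to 0.18. With limma-voom and quality weights the sign turned for 15 members, at 0.026 for Slc34a1, 0.29 for Slc22a6, 0.044 for Slc22a8, 0.040 for Slc22a12, 0.071 for Slc7a7, 0.11 for Slc13a1, 0.11 for Slc13a3, 0.016 for Slc17a3, 0.017 for Slc6a19, 0.12 for Slc26a1, 0.064 for Slco1a1, 0.011 for Slco1a6, 0.12 for Abcc2, 0.042 for Abcg2 and 0.17 for Lrp2. Upper-quartile scaling gave -0.016 for Slc22a5 and -0.018 for Dab2, library size alone -0.0057 for Dab2, and a filter of 1 CPM in 3 libraries -0.0045 for Slc22a5 and -0.0054 for Dab2. Removing the length trend gave -0.093 for Slc5a8, -0.0035 for Slc22a5, -0.094 for Cubn and -0.082 for Dab2. The cause of these turns was not tested. Deviations of same-numbered KO and WT libraries from their group means, over all genes tested, had correlations of -0.28, 0.18 and -0.29. With 3 libraries per group, these values cannot decide whether the numbers pair the samples. With the replicate number as a block the median was -0.28, 0 members were called, and Slc13a1 turned to 0.0018. Of the genes in the other lists edgeR called 0, and, as alternatives added after seeing the data, DESeq2 called 6 (Fxyd4, Acta1, Ckm, Myh4, Myh1 and Tnnt3), limma-voom 2 (Myh4 and Myh1) and edgeR without a filter 1 (Myh4). The spread between libraries set the precision: the median standard error of the members was 0.48, beside a median size of difference of 0.33 (log2).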
